A study of Homo sapiens with 12 samples.

Results

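The genes described here encode the SR proteins, the heterogeneous nuclear ribonucleoproteins (hnRNPs) and a set of core spliceosome proteins. They were chosen by name, with earlier results of these data known. The rule took every symbol of the form SRSF plus a number, every symbol that starts with HNRNP, and 13 spliceosome genes. These 13 were U2AF1, U2AF2, SF3B1 to SF3B4, SF3A1 to SF3A3, ZRSR2, PRPF8, LUC7L2 and DDX41. The rule found 47 of the 17518 genes in the table of counts, 12 of them SR protein genes, 22 hnRNP genes and 13 spliceosome genes. Of these, 44 had enough reads to be tested, beside 13625 genes tested in all, and HNRNPCL1, HNRNPH2 and SRSF12 had not. Messenger RNA had been sequenced in 12 libraries of MUTZ-1 and SKM-1, human cell lines labelled as cells of myelodysplastic syndrome, a clonal disorder of blood formation, with marrow as their tissue. The groups of 3 libraries each were MUTZ-1 with a short hairpin RNA against NUDT21 (shNUDT21), MUTZ-1 with a control hairpin, SKM-1 with shNUDT21 and SKM-1 with a control hairpin. In 1 place the design text writes MUTZ-1 where the second line would stand, so the line of each library is the one its title gives. The controls are called WT under genotype in the labels and carry a hairpin too. The NUDT21 protein is the RNA-binding subunit of cleavage factor Im, recognises UGUA in nascent RNA and takes part in choosing where a transcript ends, and the design asks what its loss does to gene expression in these lines.

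A spliceosome removes an intron in steps. U1 marks the 5′ splice site with helpers such as LUC7L2. U2AF1 and U2AF2 read the end of the intron. The SF3A and SF3B proteins, parts of the U2 particle, then hold the branch site, the adenosine to which the cut 5′ end of the intron is joined. PRPF8 forms the scaffold of the catalytic core, and ZRSR2 serves the rare introns of the minor spliceosome. SR proteins bind exons and mostly favour their inclusion, whereas hnRNPs coat nascent RNA and often repress nearby splice sites. SF3B1, SRSF2, U2AF1 and ZRSR2 are the splicing genes most often mutated in myelodysplastic syndrome, and PRPF8, LUC7L2 and DDX41 are mutated or deleted less often. Many SR protein and hnRNP genes contain conserved exons or introns whose altered splicing sends the transcript to nonsense-mediated decay, so that these proteins keep their own and each other's levels in check.

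Libraries held 15843012 to 18426619 counts. Levels are given in CPM, a count relative to the size of its library, after scaling by trimmed means of M values, and a gene is called changed at an adjusted p under 0.05 in the quasi-likelihood test of edgeR, adjusted by the Benjamini-Hochberg method over all genes tested. Nothing in the labels says that the 3 libraries of a group came from separate cultures, so the spread behind the p-values may be technical. NUDT21 stood at 135, 136 and 142 CPM in MUTZ-1 shNUDT21 libraries, against 301, 297 and 301 CPM in MUTZ-1 controls, and at 131, 132 and 129 CPM in SKM-1 shNUDT21 libraries, against 322, 336 and 344 CPM in SKM-1 controls. The fit left 46.1% of the control level in MUTZ-1 and 39.2% in SKM-1. Markers of blood lineages differed between the lines. The 9 B lineage markers summed to 1661 to 1708 CPM in MUTZ-1 shNUDT21 libraries and 2013 to 2021 CPM in MUTZ-1 controls, against 10.1 to 16.3 CPM over all SKM-1 libraries. The 13 erythroid markers summed to 4871 to 5092 CPM in SKM-1 shNUDT21 libraries, against 1299.6 to 1318 CPM in SKM-1 controls, and 13 of 13 rose. In MUTZ-1 they summed to 315 to 320.4 CPM in shNUDT21 libraries, against 743 to 764 CPM in controls, where 3 of the 13 reached 1 CPM, 1 fell and 3 rose. The one that fell was TFRC, the transferrin receptor gene of dividing and erythroid cells, with means of 291 CPM in MUTZ-1 shNUDT21 libraries and 736 CPM in controls. MPO, the myeloperoxidase gene that defines granulocyte precursors, was at 0 in both MUTZ-1 groups and in SKM-1 shNUDT21 libraries. MPO does not stand for the 11 myeloid markers, which summed to 97.6 to 107 CPM in SKM-1 shNUDT21 libraries, against 29.5 to 32.6 CPM in SKM-1 controls. In MUTZ-1 they summed to 72.2 to 81.3 CPM in shNUDT21 libraries, against 83.8 to 95.2 CPM in controls. Of the 6 tested, 5 rose and 1 fell in SKM-1, and 0 rose and 4 fell in MUTZ-1.

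Splicing factor genes moved in opposite directions in the 2 lines. In MUTZ-1, 31 of the 44 tested members fell with the knockdown and 2 rose, where 24.6% of all genes tested fell and 24.4% rose. Of all calls in MUTZ-1, 49.8% were higher with this scaling, against 60.7% with library totals alone. In SKM-1, 35 members rose and 4 fell, where 42.1% of all genes rose and 42.3% fell. The median log2 fold change of the members was -0.18 in MUTZ-1 and 0.42 in SKM-1, beside medians of 0 over all genes in both lines. Groups without overlap were common. In MUTZ-1, shNUDT21 libraries lay wholly below controls for 33 members and above for 3, beside 3634 and 3667 of 13625 genes. In SKM-1 they lay wholly above controls for 36 members and below for 4, beside 5765 and 5755 genes. The changes in MUTZ-1 were small: 0 members changed 2-fold or more there, beside 3.11% of all genes that rose and 1.64% that fell that far, and SRSF6 changed most, to 67.7% of its control level. In SKM-1, SF3A3 and HNRNPF rose and HNRNPA1L2 fell at least 2-fold, beside 12.6% of all genes that rose and 22.5% that fell that far. Since the libraries are made from bulk RNA, a lower level in every cell and fewer cells with the transcript cannot be told apart.

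As a share of all counts in a library, the 47 genes together took 1.93% ± 0.00893 in MUTZ-1 shNUDT21 libraries and 2.11% ± 0.00898 in MUTZ-1 controls (SD, n = 3 each). In SKM-1 they took 1.89% ± 0.0112 in shNUDT21 libraries and 1.60% ± 0.00423 in controls. The knockdown share was 0.912 times the control share in MUTZ-1 and 1.18 times in SKM-1. The groups did not overlap in either line, and the 2-sided exact permutation test gave p = 0.1 in each, the smallest that 3 against 3 libraries can give. The 3 classes shared the direction: the ratio in MUTZ-1 was 0.909 for SR protein genes, 0.915 for hnRNP genes and 0.908 for spliceosome genes, and in SKM-1 it was 1.25 for SR protein genes, 1.13 for hnRNP genes and 1.28 for spliceosome genes.

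**Figure D1:**
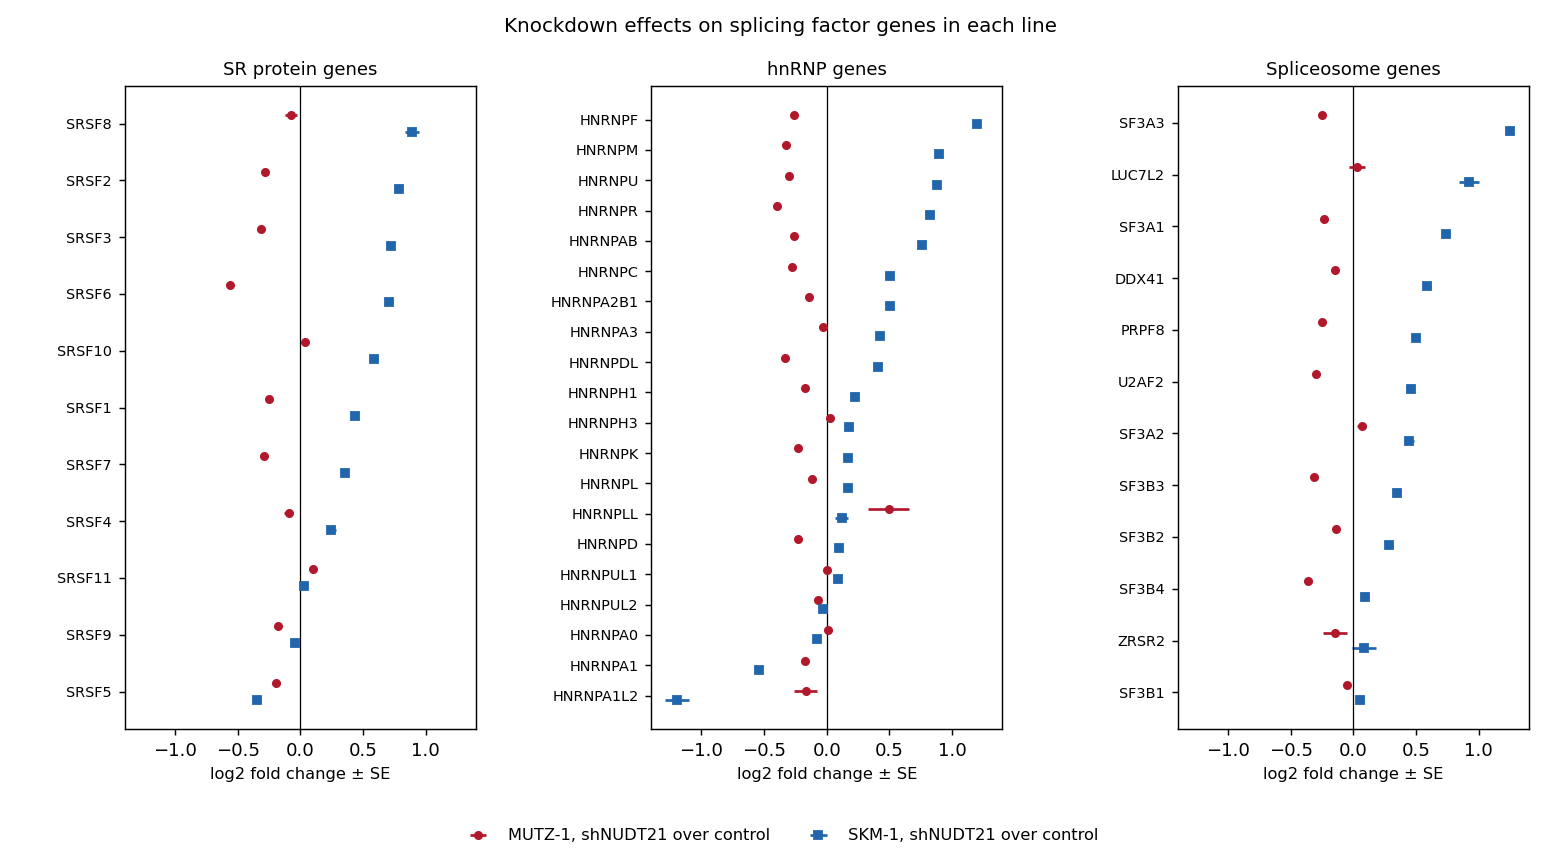
Log2 fold change of shNUDT21 over control libraries, with its standard error, for the tested SR protein, hnRNP and spliceosome genes in MUTZ-1 (circles) and SKM-1 (squares), ordered by the value in SKM-1. Most circles lie left of 0 and most squares right of it; U2AF1, whose counts are uncertain, is left out.

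The same genes often made up both counts. Lower in MUTZ-1 and higher in SKM-1 were 27 of the 44 tested members, among them 6 of 11 SR protein genes, 12 of 20 hnRNP genes and 9 of 13 spliceosome genes. Over all genes tested this pattern was met by 15%. HNRNPLL rose in both lines, as did 7.72% of all genes, and HNRNPA1 and SRSF5 fell in both, as did 6.58%. The reverse pattern, higher in MUTZ-1 and lower in SKM-1, was met by 0 members and by 13% of all genes. The 27 genes had log2 fold changes of -0.56 to -0.05 in MUTZ-1 and of 0.05 to 1.25 in SKM-1, with medians of -0.26 and 0.50. Under the other scalings, tests and left-out libraries the number with this pattern ran between 23 and 27. The difference between the knockdown effects, MUTZ-1 minus SKM-1, was itself called below 0 for 35 members and above 0 for 6, where 35.6% of all genes lay below and 36.4% above. Across 42 members without U2AF1 and HNRNPLL, the effects in the lines had a Pearson r of -0.28 and a Spearman rho of -0.36, a description over genes that share libraries and are not replicates. HNRNPLL and U2AF1, left out of that value, weigh heavily: with them, over 44 members, r was 0.15 and rho -0.29.

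**Figure D2:**
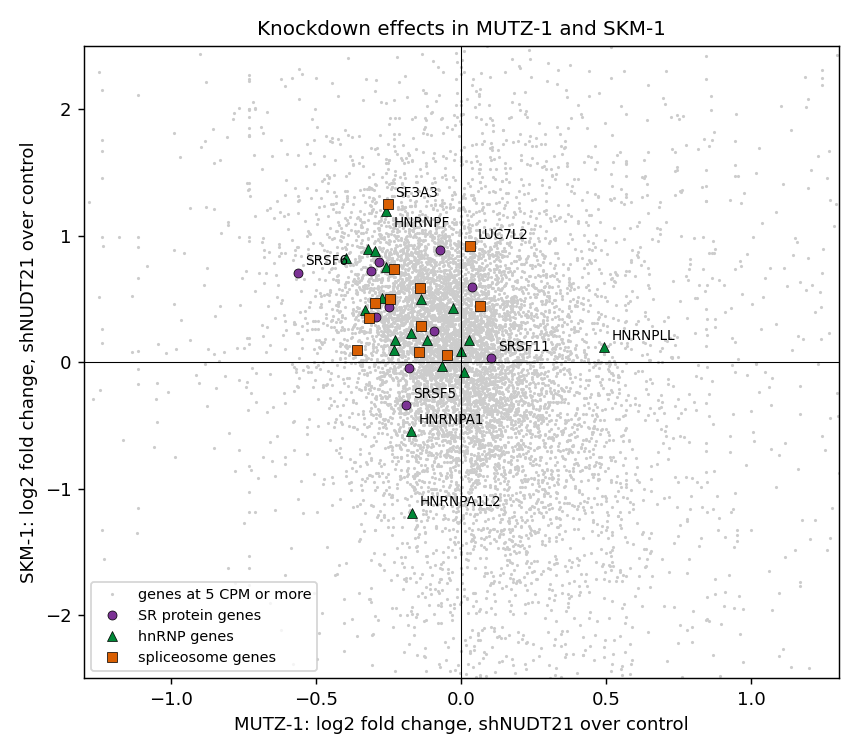
Log2 fold change of shNUDT21 over control libraries in MUTZ-1 (x axis) against SKM-1 (y axis) for SR protein, hnRNP and spliceosome genes, over all genes that average 5 CPM or more (grey), without U2AF1. The members gather in the upper left part, which holds the 27 genes with a fall in MUTZ-1 and a rise in SKM-1.

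Among the 11 tested SR protein genes, 8 fell and 1 rose in MUTZ-1, where 24.6% of all genes fell and 24.4% rose. In SKM-1, 8 rose and 1 fell, where 42.1% of all genes rose and 42.3% fell. SRSF6, which binds purine-rich exon sequences, had 199, 195 and 198 CPM in MUTZ-1 shNUDT21 libraries, against 284, 292 and 297 CPM in MUTZ-1 controls. It had 222, 224 and 214 CPM in SKM-1 shNUDT21 libraries, against 131, 137 and 136 CPM in SKM-1 controls. All 3 knockdown libraries were thus below their controls in MUTZ-1 and above them in SKM-1. The log2 fold change was -0.56 ± 0.03 in MUTZ-1 (adjusted p = 6.26e-50) and 0.71 ± 0.03 in SKM-1 (adjusted p = 3.6e-61), both ± SE. SRSF2, an exon-binding SR protein whose mutations in myeloid disease alter the sequences it prefers, had 420.1, 413 and 419 CPM in MUTZ-1 shNUDT21 libraries, against 513, 503 and 509 CPM in MUTZ-1 controls. Its level in SKM-1 was 437, 439 and 429.6 CPM in SKM-1 shNUDT21 libraries, against 244, 260.2 and 253 CPM in SKM-1 controls. The groups did not overlap in either line, with log2 fold changes of -0.28 ± 0.02 in MUTZ-1 and 0.79 ± 0.02 in SKM-1. SRSF1, SRSF3, SRSF4 and SRSF7 did the same, between -0.31 (SRSF3) and -0.09 (SRSF4) in MUTZ-1 and between 0.25 (SRSF4) and 0.72 (SRSF3) in SKM-1. SRSF1 is a general splicing activator and known oncoprotein, and SRSF3 and SRSF7 also serve as adaptors for mRNA export. The small fall of SRSF4 in MUTZ-1 lost its call when any of the 6 MUTZ-1 libraries or SKM-1 shNUDT21 replicate 2 was left out. Library totals, relative log expression, FPKM and DESeq2 ended the call too.

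Other SR protein genes were called in 1 line. SRSF10, a splicing repressor when dephosphorylated, had 282, 278 and 277 CPM in SKM-1 shNUDT21 libraries, against 188, 182 and 185 CPM in SKM-1 controls, a log2 fold change of 0.59 ± 0.03. In MUTZ-1 it had 451, 439 and 450.3 CPM in MUTZ-1 shNUDT21 libraries, against 438, 425 and 444 CPM in MUTZ-1 controls. It was not called there (adjusted p = 0.186), but a rise was called under library totals, relative log expression, FPKM and DESeq2. The rise was also called without MUTZ-1 control replicate 1, MUTZ-1 shNUDT21 replicate 2 or SKM-1 shNUDT21 replicate 2. SRSF8, an intronless relative of SRSF2 that arose as a retrocopy, had 60.0, 55.4 and 59.6 CPM in SKM-1 shNUDT21 libraries, against 32.4, 31.9 and 30.1 CPM in SKM-1 controls, or 0.89 ± 0.05 on the log2 scale. The MUTZ-1 libraries, with 49.9, 50.5 and 52.2 CPM in MUTZ-1 shNUDT21 libraries, against 53.3, 54.4 and 53.0 CPM in MUTZ-1 controls, did not reach the threshold (adjusted p = 0.236). SRSF9 fell in MUTZ-1 by 0.18 and was not called in SKM-1, at -0.04 ± 0.03. It was called lower in SKM-1 under library totals, FPKM and a fit of the SKM-1 libraries alone, and higher with chromosome medians subtracted. SRSF9 was also called lower without SKM-1 control replicate 1, SKM-1 shNUDT21 replicate 2, or replicate 1 or 2 of MUTZ-1 control or MUTZ-1 shNUDT21.

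A pair of SR protein genes stood apart. SRSF5 fell in both lines, with 125, 125 and 122 CPM in MUTZ-1 shNUDT21 libraries, against 140.1, 143 and 142 CPM in MUTZ-1 controls, and 172, 174 and 176 CPM in SKM-1 shNUDT21 libraries, against 222, 219 and 222 CPM in SKM-1 controls. The log2 fold changes were -0.19 ± 0.03 in MUTZ-1 and -0.34 ± 0.03 in SKM-1. Unlike the other tested SR protein genes it was also lower in MUTZ-1 than in SKM-1 controls. SRSF11, known for its part in the inclusion of short neuronal exons, was the 1 SR protein gene that rose in MUTZ-1, with 542, 534 and 559 CPM in MUTZ-1 shNUDT21 libraries, against 525, 489 and 509 CPM in MUTZ-1 controls and a log2 fold change of 0.10 ± 0.02 (adjusted p = 3.29e-05). It had 263, 260.1 and 262 CPM in SKM-1 shNUDT21 libraries, against 253, 254 and 262 CPM in SKM-1 controls, groups that overlapped. SRSF12 was not tested: it had 0, 1 and 0 counts in MUTZ-1 shNUDT21 libraries, against 2, 0 and 0 in MUTZ-1 controls, and 2, 1 and 0 in SKM-1 shNUDT21 libraries, against 6, 13 and 9 in SKM-1 controls.

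Of the 20 tested hnRNP genes, 14 fell and 1 rose in MUTZ-1, beside 24.6% and 24.4% of all genes. In SKM-1, 16 rose and 3 fell, beside 42.1% and 42.3% of all genes. HNRNPR, a nuclear RNA-binding protein also studied for mRNA transport in motor axons, had 385, 401 and 398 CPM in MUTZ-1 shNUDT21 libraries, against 524, 513 and 523 CPM in MUTZ-1 controls. It had 395, 395 and 392 CPM in SKM-1 shNUDT21 libraries, against 224, 221 and 224 CPM in SKM-1 controls. The knockdown libraries of the 2 lines lay close together, whereas the MUTZ-1 controls were more than 2-fold above the SKM-1 controls (log2 fold change 1.22 ± 0.02). With chromosome medians subtracted, the knockdown libraries of the lines were called different for HNRNPR. HNRNPM, which promotes exon skipping and is known from CD44 splicing, had 465, 449.7 and 459.6 CPM in MUTZ-1 shNUDT21 libraries, against 577, 577 and 564 CPM in MUTZ-1 controls. In SKM-1 its level was 497, 494 and 484 CPM in SKM-1 shNUDT21 libraries, against 267, 264 and 264 CPM in SKM-1 controls. The knockdown effects were -0.32 ± 0.02 in MUTZ-1 and 0.89 ± 0.02 in SKM-1 on the log2 scale.

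HNRNPF, which binds runs of guanines, had 303, 303 and 297 CPM in MUTZ-1 shNUDT21 libraries, against 357, 369 and 354 CPM in MUTZ-1 controls. It had 602, 591 and 582 CPM in SKM-1 shNUDT21 libraries, against 250.5, 259.7 and 265 CPM in SKM-1 controls. This was the widest change of an hnRNP gene above 5 CPM in the upward direction, 1.19 ± 0.02 in SKM-1 against -0.26 ± 0.02 in MUTZ-1. HNRNPAB, a relative of HNRNPD found in editing complexes, had 409, 423 and 408 CPM in MUTZ-1 shNUDT21 libraries, against 493, 493 and 501 CPM in MUTZ-1 controls, and 368, 354 and 348 CPM in SKM-1 shNUDT21 libraries, against 205, 211 and 218 CPM in SKM-1 controls. HNRNPDL, whose own alternative splicing is known to send part of its mRNA to decay, had 315, 308 and 314 CPM in MUTZ-1 shNUDT21 libraries, against 390.0, 395 and 393 CPM in MUTZ-1 controls. Its log2 fold change was -0.33 ± 0.02 in MUTZ-1, and 0.41 ± 0.02 in SKM-1, where it had 342, 352 and 342 CPM in SKM-1 shNUDT21 libraries, against 263, 263 and 255 CPM in SKM-1 controls. In each of these 3 genes the groups did not overlap in either line, which was common over all genes too.

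HNRNPA2B1, HNRNPC, HNRNPD, HNRNPH1, HNRNPK, HNRNPL and HNRNPU shared the fall in MUTZ-1 and the rise in SKM-1. In MUTZ-1 their log2 fold changes ran between -0.30 for HNRNPU, which ties RNA to the nuclear matrix, and -0.12 for HNRNPL, which binds CA repeats. In SKM-1 they ran between 0.10 for HNRNPD, a regulator of mRNA decay, and 0.88 for HNRNPU. The rise of HNRNPD was not called under library totals or FPKM. HNRNPC, which binds uridine tracts and keeps Alu elements from being spliced in as exons, lay between, with -0.27 ± 0.02 in MUTZ-1 and 0.51 ± 0.02 in SKM-1. HNRNPA3, HNRNPH3 and HNRNPUL1 rose in SKM-1, by 0.43, 0.17 and 0.09, and were not called in MUTZ-1. HNRNPUL1 lost its call in SKM-1 under library totals, FPKM and without SKM-1 shNUDT21 replicate 2, and HNRNPH3 with chromosome medians subtracted. In MUTZ-1, HNRNPH3 was called under library totals and FPKM and without SKM-1 shNUDT21 replicate 2. HNRNPUL1 was called there under library totals, and HNRNPA3 with chromosome medians subtracted.

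HNRNPA1, the classical repressor that pulls splicing toward distal 5′ splice sites, fell in both lines. It had 1391, 1354 and 1385 CPM in MUTZ-1 shNUDT21 libraries, against 1549, 1554 and 1554 CPM in MUTZ-1 controls. It had 1783, 1756 and 1763 CPM in SKM-1 shNUDT21 libraries, against 2568, 2586 and 2578 CPM in SKM-1 controls. The fall was -0.17 ± 0.02 in MUTZ-1 and -0.54 ± 0.02 in SKM-1 (adjusted p = 3.29e-79), and the difference between the effects was 0.37 ± 0.02 (adjusted p = 6.01e-34). HNRNPA1L2, a copy of HNRNPA1 whose coding sequence matches it at 945 of 960 bases, had 14.8, 12.8 and 15.5 CPM in MUTZ-1 shNUDT21 libraries, against 16.5, 16.9 and 15.2 CPM in MUTZ-1 controls, and 9.21, 7.96 and 9.62 CPM in SKM-1 shNUDT21 libraries, against 21.1, 20.0 and 20.3 CPM in SKM-1 controls. The SKM-1 groups did not overlap, at -1.20 ± 0.10 on the log2 scale (adjusted p = 1.65e-25). HNRNPA1L2 lies on chromosome 13, where the median gene changed by -1.08 in SKM-1, and once that median was subtracted its change was not called. Reads of such close copies can be assigned to either gene, so the value of HNRNPA1L2 is uncertain.

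HNRNPLL showed the widest gap between the lines of any member. This protein is known to repress variable exons of PTPRC (CD45) in activated lymphocytes. It had 4.39, 2.80 and 3.45 CPM in MUTZ-1 shNUDT21 libraries, against 2.72, 2.63 and 2.26 CPM in MUTZ-1 controls. It had 80.8, 81.6 and 81.2 CPM in SKM-1 shNUDT21 libraries, against 70.5, 76.7 and 77.3 CPM in SKM-1 controls. The log2 difference of MUTZ-1 over SKM-1 controls was -4.88 ± 0.09 (adjusted p = 8.87e-124). HNRNPLL was called higher in both knockdowns, at 0.49 ± 0.17 in MUTZ-1 and 0.12 ± 0.05 in SKM-1, but the MUTZ-1 call rested on 44 to 75 counts in shNUDT21 libraries and 40 to 48 in controls. It was lost without MUTZ-1 shNUDT21 replicate 1 or without MUTZ-1 control replicate 3. The SKM-1 call was lost under library totals, FPKM and DESeq2, and without SKM-1 control replicate 1 or SKM-1 shNUDT21 replicate 2. It was lost too without replicate 1 or 2 of MUTZ-1 control or MUTZ-1 shNUDT21.

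HNRNPUL2, a relative of HNRNPU that acts in DNA end resection, had 665, 674 and 691 CPM in MUTZ-1 shNUDT21 libraries, against 704, 709 and 714 CPM in MUTZ-1 controls, and 265, 262 and 266 CPM in SKM-1 shNUDT21 libraries, against 275, 265 and 271 CPM in SKM-1 controls. The fall of 0.07 in MUTZ-1 was called (adjusted p = 0.00429) but not under library totals, size factors by relative log expression, FPKM or DESeq2. The call was lost too without replicate 1 or 2 of MUTZ-1 control or MUTZ-1 shNUDT21, or without SKM-1 shNUDT21 replicate 2. In SKM-1 HNRNPUL2 was not called, at -0.03 ± 0.02. It was called lower under library totals, FPKM, a fit of the SKM-1 libraries alone and with chromosome medians subtracted, where it was -0.24. The same call was made without replicate 1 or 2 of MUTZ-1 control or MUTZ-1 shNUDT21. HNRNPA0, a binder of AU-rich elements that lies on chromosome 5, had 302, 291 and 299.6 CPM in MUTZ-1 shNUDT21 libraries, against 301, 291 and 295 CPM in MUTZ-1 controls. In SKM-1 it fell, by 0.08, with 226, 210.4 and 219 CPM in SKM-1 shNUDT21 libraries, against 233, 231 and 228 CPM in SKM-1 controls (adjusted p = 0.00451).

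**Figure D3:**
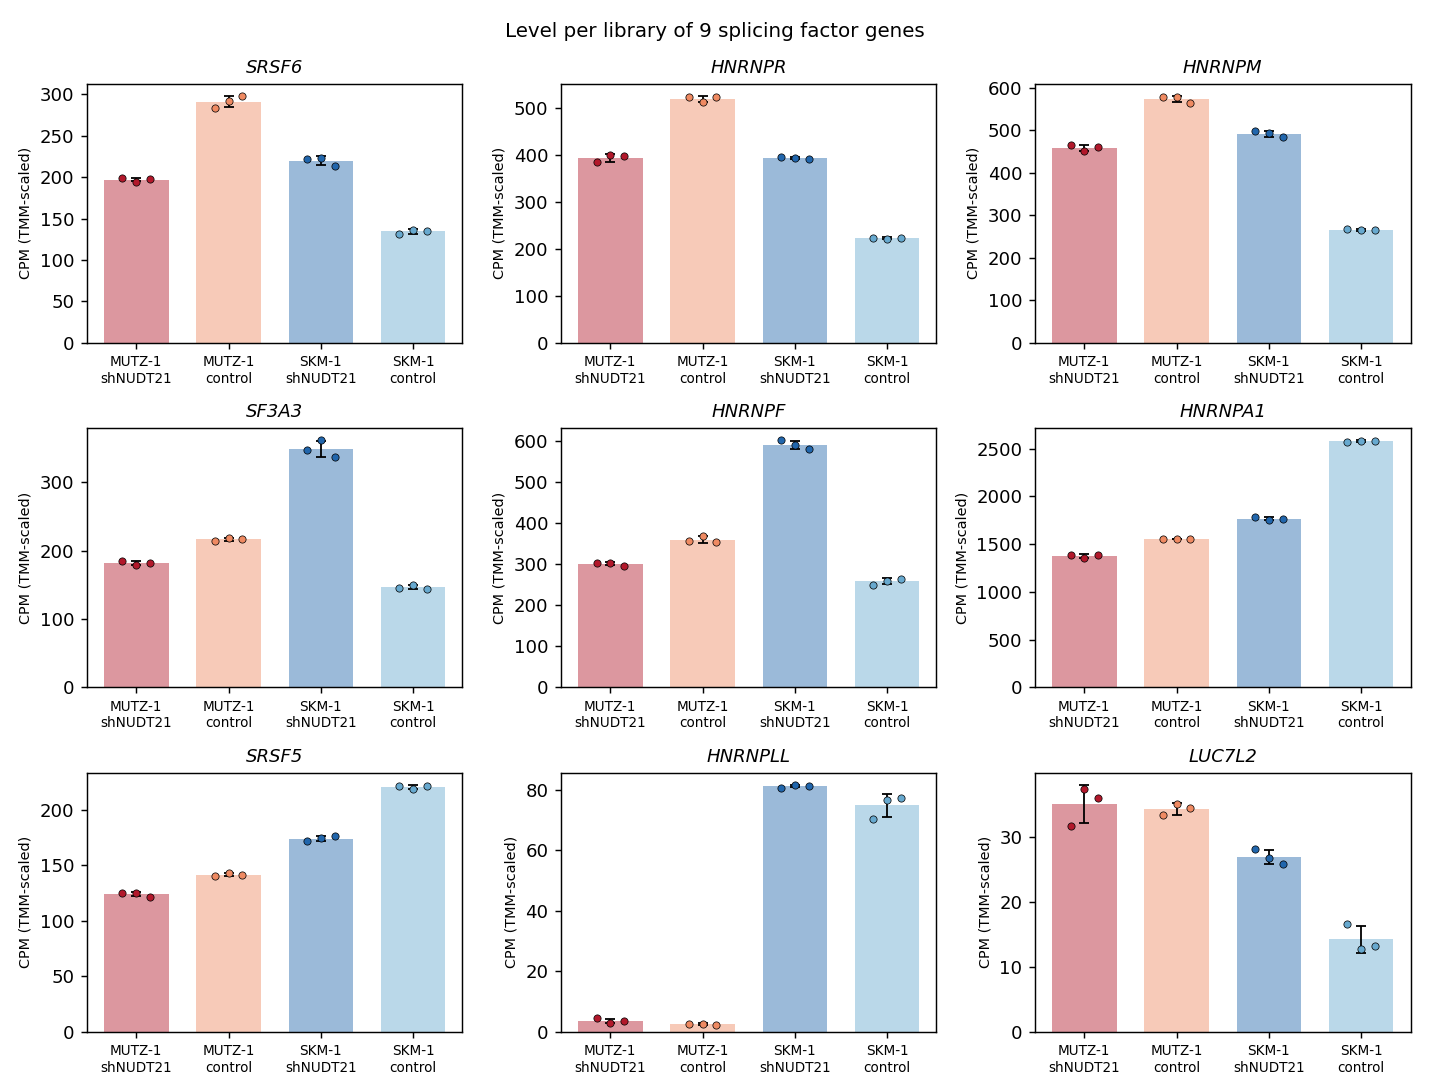
Level in CPM in each of the 12 libraries (points), with the mean (bar) and SD (line) of each group of 3, for SRSF6, HNRNPR, HNRNPM, SF3A3, HNRNPF, HNRNPA1, SRSF5, HNRNPLL and LUC7L2. The first 5 genes were lower in MUTZ-1 shNUDT21 libraries and higher in SKM-1 shNUDT21 libraries than in their controls, HNRNPA1 and SRSF5 were lower in both lines, and HNRNPLL stood near 0 in MUTZ-1.

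The 13 spliceosome genes split into 9 that fell and 0 that rose in MUTZ-1, beside 24.6% and 24.4% of all genes. In SKM-1, 11 rose and 0 fell, beside 42.1% and 42.3% of all genes. Among the SF3A and SF3B subunits of the U2 particle, SF3A3 changed most in SKM-1. It had 184, 179 and 182 CPM in MUTZ-1 shNUDT21 libraries, against 214, 218 and 217 CPM in MUTZ-1 controls. It had 347, 361 and 338 CPM in SKM-1 shNUDT21 libraries, against 146, 149.5 and 145 CPM in SKM-1 controls. The rise in SKM-1, 1.25 ± 0.03 on the log2 scale (adjusted p = 9.58e-108), was 2.38-fold, and the fall in MUTZ-1 was -0.25 ± 0.03. SF3B1, which clamps the branch site and is the splicing gene most often mutated in this disease, had 751, 739 and 755 CPM in MUTZ-1 shNUDT21 libraries, against 765, 779 and 781 CPM in MUTZ-1 controls, and 443, 433 and 437 CPM in SKM-1 shNUDT21 libraries, against 419, 423 and 423 CPM in SKM-1 controls. Both changes were called, -0.05 ± 0.02 in MUTZ-1 and 0.05 ± 0.02 in SKM-1, but neither with library totals or FPKM, where the SKM-1 value was -0.03. With chromosome medians subtracted, the SKM-1 value was 0.28 (adjusted p = 2.31e-28), since the median gene of chromosome 2 changed by -0.23 there. The MUTZ-1 call was also lost under relative log expression and DESeq2. It was lost too without SKM-1 shNUDT21 replicate 2 or any single MUTZ-1 library other than shNUDT21 replicate 3. The SKM-1 call was also lost in a fit of the SKM-1 libraries alone. It was lost too without replicate 1 or 2 of SKM-1 shNUDT21, MUTZ-1 control or MUTZ-1 shNUDT21, or without SKM-1 control replicate 1. SF3B4, which also contacts RNA near the branch site, had 142, 147 and 142 CPM in MUTZ-1 shNUDT21 libraries, against 184, 188 and 181 CPM in MUTZ-1 controls, and 122, 129 and 119 CPM in SKM-1 shNUDT21 libraries, against 117, 117 and 114 CPM in SKM-1 controls. Its fall in MUTZ-1, -0.36 ± 0.03, was the widest of the 13. The call of its rise in SKM-1, 0.09 ± 0.03, was lost under library totals, FPKM and a fit of the SKM-1 libraries alone. It was lost too without SKM-1 shNUDT21 replicate 2 or replicate 1 or 2 of MUTZ-1 control or MUTZ-1 shNUDT21. After chromosome medians were subtracted, the SKM-1 value was -0.06.

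SF3A1, SF3B2 and SF3B3 fell in MUTZ-1 by 0.23, 0.14 and 0.32 and rose in SKM-1 by 0.74, 0.29 and 0.35. SF3A2 rose in SKM-1 by 0.44 and was not called in MUTZ-1 (adjusted p = 0.103). It was called higher there under library totals and relative log expression. The same held without MUTZ-1 control replicate 1 or 3, MUTZ-1 shNUDT21 replicate 1 or SKM-1 shNUDT21 replicate 2. U2AF2, the large subunit that binds the polypyrimidine tract, had 356, 347 and 356 CPM in MUTZ-1 shNUDT21 libraries, against 438, 433 and 433 CPM in MUTZ-1 controls. It had 344, 354 and 339 CPM in SKM-1 shNUDT21 libraries, against 250.4, 245 and 258 CPM in SKM-1 controls. The log2 fold changes of U2AF2 were -0.30 ± 0.02 in MUTZ-1 and 0.46 ± 0.02 in SKM-1. The shNUDT21 libraries of the lines lay within 0.03 of each other, a gap that was not called (adjusted p = 0.227). U2AF2 lies on chromosome 19, where the median gene changed by 0.31 in SKM-1, and with chromosome medians subtracted that gap was called.

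PRPF8 had 533, 539 and 529.8 CPM in MUTZ-1 shNUDT21 libraries, against 632, 628 and 641 CPM in MUTZ-1 controls. It had 795, 810.0 and 833 CPM in SKM-1 shNUDT21 libraries, against 585, 575 and 565 CPM in SKM-1 controls. It fell by 0.25 in MUTZ-1 and rose by 0.50 in SKM-1, with no overlap in either. DDX41, a helicase gene with inherited mutations in myeloid neoplasms, had 123, 125 and 121 CPM in MUTZ-1 shNUDT21 libraries, against 133, 138 and 137 CPM in MUTZ-1 controls. In SKM-1 its level was 150.2, 159.7 and 155 CPM in SKM-1 shNUDT21 libraries, against 107, 105 and 98.1 CPM in SKM-1 controls, so that it fell by 0.14 in MUTZ-1 and rose by 0.59 in SKM-1. LUC7L2, a U1 partner that affects the choice of 5′ splice site, had 31.7, 37.4 and 36.0 CPM in MUTZ-1 shNUDT21 libraries, against 33.3, 35.1 and 34.5 CPM in MUTZ-1 controls, groups that overlapped. It had 28.1, 26.8 and 25.8 CPM in SKM-1 shNUDT21 libraries, against 16.6, 12.8 and 13.2 CPM in SKM-1 controls, a rise of 0.92 ± 0.08 (adjusted p = 2.5e-23). LUC7L2 lies on chromosome 7, where the median change of all genes in SKM-1 was 0.35. ZRSR2 had 13.6, 16.4 and 14.5 CPM in MUTZ-1 shNUDT21 libraries, against 16.5, 16.2 and 16.3 CPM in MUTZ-1 controls, and 14.0, 15.6 and 15.5 CPM in SKM-1 shNUDT21 libraries, against 14.3, 12.2 and 16.3 CPM in SKM-1 controls. The ZRSR2 groups overlapped in both lines and neither knockdown effect was called (adjusted p = 0.207 in MUTZ-1 and 0.421 in SKM-1). ZRSR2 lies on chromosome X, with a median change of -0.46 in SKM-1, and once that median was subtracted it was called higher there, at 0.54 (adjusted p = 8.4e-08).

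The level of U2AF1 is uncertain in these counts. It had 27, 34 and 697 counts in MUTZ-1 shNUDT21 libraries, against 203, 43 and 51 in MUTZ-1 controls, and 39, 46 and 46 counts in SKM-1 shNUDT21 libraries, against 17, 17 and 15 in SKM-1 controls. U2AF1L5, an annotated copy with the same coding sequence at 720 of 720 bases, had 131, 85 and 104 counts in MUTZ-1 shNUDT21 libraries, against 113, 141 and 130 in MUTZ-1 controls. In SKM-1 it had 81, 404 and 600 counts in shNUDT21 libraries, against 97, 76 and 75 in controls. Single libraries thus stood far from their replicates, and they were not the same libraries for the 2 copies. No effect on U2AF1 was called (adjusted p = 0.35 in MUTZ-1 and 0.496 in SKM-1), although the SKM-1 groups did not overlap and a fit of the SKM-1 libraries alone called it (adjusted p = 4.56e-07). Without MUTZ-1 shNUDT21 replicate 3, the library with 697 counts, the fitted effect in MUTZ-1 was -1.60 on the log2 scale instead of 1.41. Other members overlap annotated neighbours. HNRNPH2, which had 0 to 7 counts in a library, lies at chrX:101408222-101414133 (GRCh38.p14) and overlaps the annotated read-through gene RPL36A-HNRNPH2, and LUC7L2 overlaps FMC1-LUC7L2. HNRNPUL2 overlaps HNRNPUL2-BSCL2. How reads that match several genes were counted is not given in the sources used here, and its part in these values was not tested.

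The distance between the lines was smaller in shNUDT21 libraries than in controls for most of these genes. In the controls, 39 of 44 members were higher in MUTZ-1 than in SKM-1 and 4 were lower, where 41.4% of all genes were higher and 48.8% lower. The exceptions were HNRNPA1, HNRNPA1L2, HNRNPLL and SRSF5. In the shNUDT21 libraries, 19 were higher and 20 lower in MUTZ-1, where 41.4% of all genes were higher and 46.6% lower. The median log2 difference of MUTZ-1 over SKM-1 was -0.0033 in shNUDT21 libraries and 0.68 in controls. Taken without sign, the difference was smaller in shNUDT21 libraries than in controls for 35 of 44 members, or 79.5%, and for 50.9% of all genes. The median size was 0.31 in shNUDT21 libraries and 0.70 in controls for the members, and 0.88 in both for all genes. HNRNPUL2 and HNRNPLL kept a gap of 2-fold or more, with log2 differences of 1.36 ± 0.02 and -4.51 ± 0.08 in shNUDT21 libraries, against 1.39 ± 0.02 and -4.88 ± 0.09 in controls. For SRSF11 the log2 difference was 1.06 ± 0.02 in shNUDT21 libraries, against 0.99 ± 0.02 in controls. SF3A3 and HNRNPF passed beyond 0, to -0.94 ± 0.03 and -0.97 ± 0.02 in shNUDT21 libraries, against 0.56 ± 0.03 and 0.48 ± 0.02 in controls. These differences and the knockdown effects use the same libraries, so the narrowing restates the opposite effects in the lines. With chromosome medians subtracted, the members' median difference was 0.11 in shNUDT21 libraries and 0.69 in controls. Of the 39 calls in shNUDT21 libraries, 31 then stayed, 5 were lost and 3 turned, those of HNRNPM, SRSF2 and SRSF3. HNRNPR, SRSF1, U2AF2 and ZRSR2 gained a call there.

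**Figure D4:**
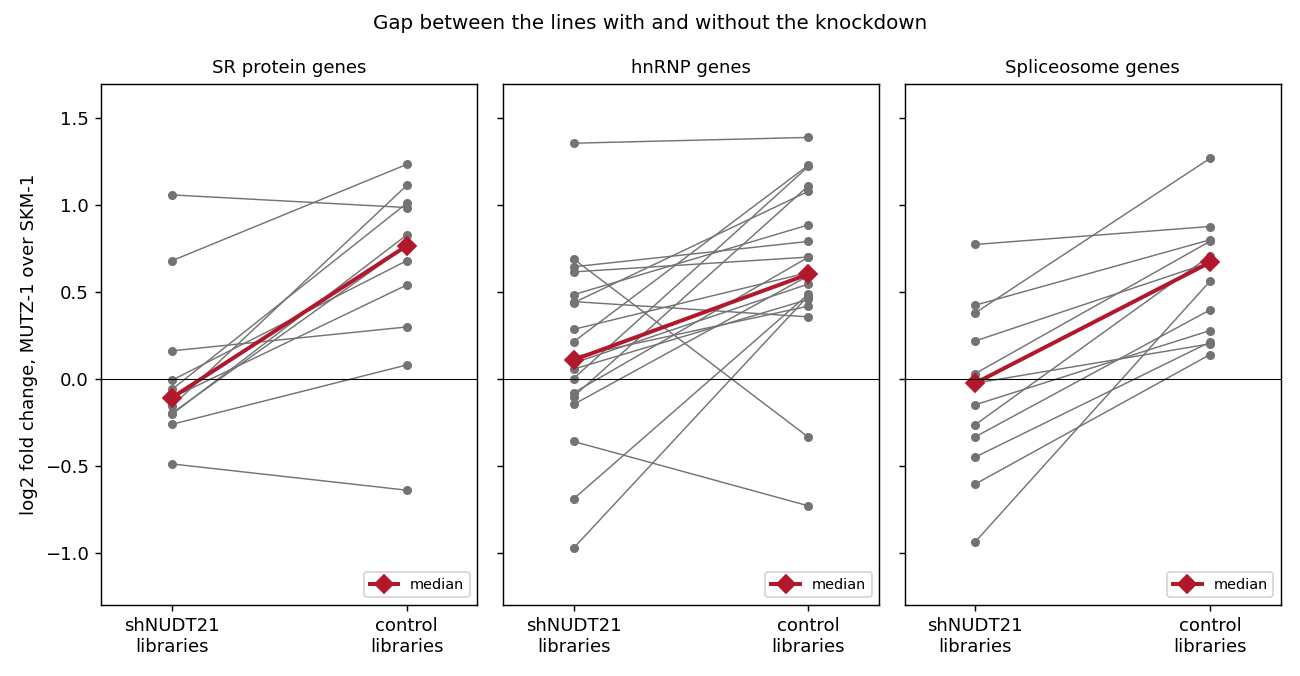
Log2 fold change of MUTZ-1 over SKM-1 in shNUDT21 libraries (left) and in control libraries (right), a line per gene and the class median in red. U2AF1 and HNRNPLL are not drawn but count in the medians, which were -0.11 with shNUDT21 and 0.77 in controls for SR protein genes, 0.11 and 0.60 for hnRNP genes, and -0.03 and 0.67 for spliceosome genes.

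Compared per length in the deposited FPKM, HNRNPA2B1 was the most abundant member in MUTZ-1, at 592 ± 5.27 FPKM in shNUDT21 libraries and 631 ± 9.45 FPKM in controls (SD, n = 3 each). HNRNPA1 was second there and first in SKM-1, where it had 470.3 ± 4.16 FPKM in shNUDT21 libraries and 726 ± 2.24 FPKM in controls. HNRNPA2B1 had 439 ± 10.6 FPKM in SKM-1 shNUDT21 libraries and 328 ± 4.07 FPKM in SKM-1 controls. In MUTZ-1, HNRNPA1 had 365 ± 5.18 FPKM in shNUDT21 libraries and 398 ± 0.483 FPKM in controls. The gap between the genes exceeded their SDs in every group, and in SKM-1 it was smaller in shNUDT21 libraries than in controls. HNRNPK, which binds runs of cytosines, was number 3 in all 4 groups. SRSF2 led the SR protein genes in MUTZ-1, with 219 ± 1.87 FPKM in shNUDT21 libraries and 258 ± 2.90 FPKM in controls. It ranked 4 among all members in SKM-1 shNUDT21 libraries, at 229.8 ± 2.17 FPKM, and 8 in SKM-1 controls, at 141 ± 4.49 FPKM, where SRSF9 had 185 ± 4.90 FPKM.

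In SKM-1, whole chromosomes differed between shNUDT21 and control libraries, and in MUTZ-1 they did not to that extent. The median log2 fold change of the genes of a chromosome ran between -1.08 (chromosome 13) and 0.49 (chromosome 21) in SKM-1 and between -0.02 (chromosome 20) and 0.03 in MUTZ-1. Members stood on both sides of this: SRSF6 rose by 0.71 in SKM-1 on chromosome 20 with a median of -0.21, HNRNPDL rose by 0.41 on chromosome 4 with a median of -0.39, and HNRNPM rose by 0.89 on chromosome 19 with a median of 0.31. After each chromosome's median was subtracted, 27 members were called lower in MUTZ-1 and higher in SKM-1, 25 of them among the 27 counted without this step. HNRNPL and SF3B4 were lost and HNRNPA3 and SRSF9 were new. Of 34 members called in the same direction with and without it in SKM-1, the size of the change grew by over 1.5 times in 8 and shrank by over 1.5 times in 11, and in MUTZ-1 it did so in 0 of 33. The members called lower in SKM-1 then numbered 7 rather than 4, and HNRNPL and HNRNPUL1 were then called lower rather than higher. The erythroid markers moved with the SKM-1 knockdown in the same libraries as the splicing factors, as did TFRC with the MUTZ-1 knockdown. The 5 epithelial markers summed to 764 to 789 CPM in SKM-1 shNUDT21 libraries, against 374 to 382 CPM in SKM-1 controls. The 6 stromal markers summed to 14.1 to 17.2 CPM there, against 64.7 to 70.9 CPM, where 2 of the 5 tested rose and 3 fell. The part of all these markers in the result was not tested. All shNUDT21 columns carry the same sh label. Loss of NUDT21, other effects of the hairpin and differences between the cultures therefore cannot be told apart.

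Other genes of splicing were counted in lists chosen by function. Each list stands beside all genes tested, of which 24.4% rose and 24.6% fell in MUTZ-1, and 42.1% rose and 42.3% fell in SKM-1. The lists were not counted again with chromosome medians subtracted. Of 12 genes for U1, U2 and the shared Sm ring, 0 rose and 9 fell in MUTZ-1, and 9 rose and 2 fell in SKM-1, with median log2 fold changes of -0.14 and 0.29. SNRPG, an Sm protein, had log2 fold changes of -0.17 ± 0.03 in MUTZ-1 and 0.87 ± 0.03 in SKM-1, whereas SNRPB2, a U2 protein, fell in both, at -0.37 ± 0.04 in MUTZ-1 and -0.79 ± 0.05 in SKM-1. SNRPC, which stabilises U1 on the 5′ splice site, rose in SKM-1 by 1.17 and was not called in MUTZ-1 (adjusted p = 0.303). It lies on chromosome 6, with a median change of 0.35 in SKM-1, and SNRPG on chromosome 2, with a median of -0.23. Of 14 genes of the U4/U6.U5 tri-snRNP, the particle that brings the catalytic RNAs, 0 rose and 10 fell in MUTZ-1, and 11 rose and 2 fell in SKM-1. PPIH, a cyclophilin bound to U4/U6, had -0.43 ± 0.04 in MUTZ-1 and 0.91 ± 0.04 in SKM-1. Of 26 genes of the Prp19 complex and the catalytic steps, 2 rose and 15 fell in MUTZ-1, and 19 rose and 4 fell in SKM-1. PRPF19 itself, a ubiquitin ligase, had -0.20 ± 0.02 in MUTZ-1 and 0.97 ± 0.03 in SKM-1. Among 7 LSm ring genes, 0 rose and 4 fell in MUTZ-1, and 6 rose and 1 fell in SKM-1. LSM6 was the one that fell in SKM-1, by 0.92.

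Of 15 U1 partners and branch site factors, 2 rose and 10 fell in MUTZ-1. In SKM-1, 9 rose and 6 fell, beside 42.1% and 42.3% of all genes. LUC7L3, a relative of LUC7L2, went the other way from most, at 0.17 ± 0.03 in MUTZ-1 and -1.07 ± 0.03 in SKM-1, and so did PRPF40B, a U1-associated protein, at 0.70 ± 0.10 in MUTZ-1 and -1.93 ± 0.09 in SKM-1. LUC7L2 and LUC7L3 therefore differed in sign in SKM-1. Of 18 SR-related regulators, 2 rose and 11 fell in MUTZ-1, and 12 rose and 4 fell in SKM-1. SON, a large scaffold of nuclear speckles, had -0.19 ± 0.02 in MUTZ-1 and 0.89 ± 0.02 in SKM-1. SAP18 fell in both lines, at -0.10 ± 0.03 in MUTZ-1 and -1.06 ± 0.03 in SKM-1. SAP18 lies on chromosome 13, with a median change of -1.08 in SKM-1, and SON on chromosome 21, with a median of 0.49. Of 12 SR protein kinases and import receptors, 1 rose and 5 fell in MUTZ-1. In SKM-1, 7 rose and 4 fell, beside 42.1% and 42.3% of all genes. SRPK1, which phosphorylates SR proteins in the cytoplasm, had -0.11 ± 0.03 in MUTZ-1 and 0.80 ± 0.03 in SKM-1. TNPO3, which carries SR proteins into the nucleus, rose in SKM-1 by 0.93 and was not called in MUTZ-1 (adjusted p = 0.773). SRPK1 lies on chromosome 6 and TNPO3 on chromosome 7, each with a median change of 0.35 in SKM-1.

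Of 10 genes of nonsense-mediated decay, 0 rose and 6 fell in MUTZ-1, and 5 rose and 3 fell in SKM-1. The SKM-1 counts of this list lie near the shares of all genes, 42.1% higher and 42.3% lower. SMG1, the kinase that starts the decay and a gene with near-identical pseudogene copies whose reads may be misplaced, fell in SKM-1 by 0.93, and UPF2, which bridges UPF1 and UPF3 proteins, rose there by 0.67. Neither was called in MUTZ-1 (adjusted p = 0.215 for SMG1 and 0.481 for UPF2). The minor spliceosome did not lean to one side: of 8 tested genes, 3 rose and 3 fell in MUTZ-1, and 3 rose and 4 fell in SKM-1. SNRNP25 had -0.34 ± 0.04 in MUTZ-1 and 0.90 ± 0.04 in SKM-1. RNPC3, a protein of the joint U11 and U12 particle, had 0.19 ± 0.08 in MUTZ-1 and -0.89 ± 0.08 in SKM-1. ZRSR2, counted above with the members, belongs to the same machinery and was called in neither line.

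**Figure D5:**
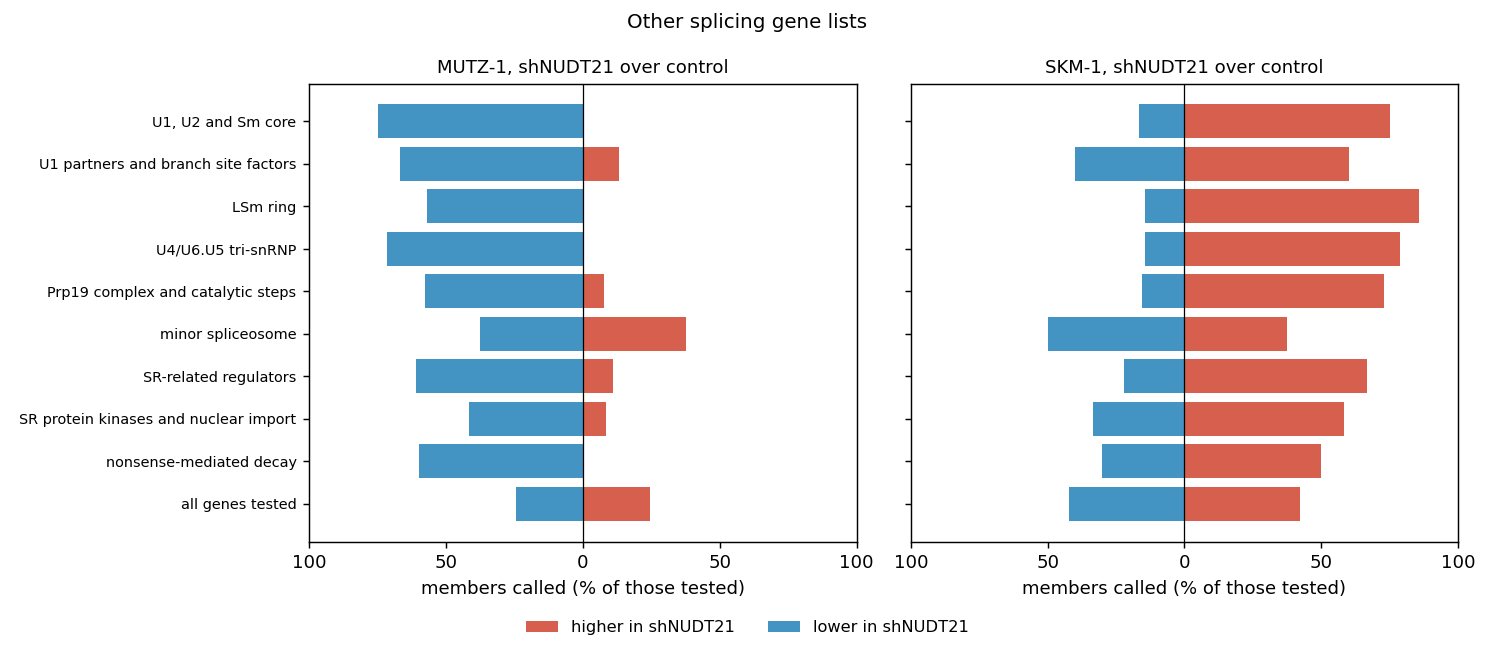
Share of the tested genes of each list called higher (red, to the right) or lower (blue, to the left) in shNUDT21 than in control libraries, in MUTZ-1 and SKM-1, with all genes tested in the bottom row. Blue exceeds red in MUTZ-1 and red exceeds blue in SKM-1 for every list except the minor spliceosome.

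Because cleavage factor Im binds UGUA, the annotated 3′ ends of the members were read for TGTA in the last 100 bases of 1 transcript per gene in GENCODE v29. At least 1 TGTA stood there in 29 of 47 members, 61.7%, in 17 of the 27 genes with opposite effects in the lines, 63.0%, and in 7122 of 13303 tested genes, 53.5%. A window of 30 bases around TGTA is printed for 6 genes with different responses, in GRCh38 coordinates and 5′ to 3′ on the gene's strand, with the TGTA nearest to it in capitals.
HNRNPR (chr1:23309808-23309837, minus strand): aatttcttgttcaTGTAagatttcaataaa
HNRNPM (chr19:8489039-8489068, plus strand): gcgcaatttttttTGTAgttgtggcatctt
SF3B1 (chr2:197389826-197389855, minus strand): ttttaaaatttgtTGTAcagtgccctgtga
SRSF11 (chr1:70252988-70253017, plus strand): ccgagttctgttgTGTAtttgatagtaaat
HNRNPLL (chr2:38562008-38562037, minus strand): gaaatcccatctcTGTAtccaaatcctact
HNRNPA1 (chr12:54287058-54287087, plus strand): ttttttttttaataaacTGTAtttaactta
HNRNPR and HNRNPM moved in opposite directions in the lines, SF3B1 changed by 0.05 in size in each, SRSF11 and HNRNPLL rose in MUTZ-1, and HNRNPA1 fell in both lines. Genes with each of these responses thus carry the motif near the end of the transcript read. SRSF6 and SF3A3, among the widest responders, carry 0 in that window. For HNRNPR the transcript read ends before the annotated 3′ end of the gene, which is at chr1:23304688. Counts per gene do not show which end a transcript used.

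The promoters of the members were read in RefSeq sequences of GRCh38.p14, 250 bases before to 50 after the start, which were matched for 41 of the 44 tested members. The ETS motif CCGGAAGT, searched on both strands, stood in 9 of these 41 promoters, 21.95%, in 7 of 25 promoters of the genes with opposite effects, 28.0%, and in 923 of 10975 promoters of tested genes, 8.41%. The E-box CACGTG stood in 7 of the 41, 17.1%, and in 4 of the 25, 16.0%, against 9.98% of tested genes. CCAAT stood in 17 of 41, 41.5%, and in 10 of 25, 40.0%, against 36.8% of tested genes. The palindromic consensus of NRF1, also searched, stood in 0 of 41 and in 2.16% of tested genes. None of these motifs contains another, and each was counted separately on both strands. The 250 bases before the start are printed for SF3A3, the widest riser in SKM-1, and for U2AF2, which also acts at the 3′ splice site, with the ETS motif or its reverse complement in capitals.
SF3A3 (chr1:37990023-37990272, minus strand): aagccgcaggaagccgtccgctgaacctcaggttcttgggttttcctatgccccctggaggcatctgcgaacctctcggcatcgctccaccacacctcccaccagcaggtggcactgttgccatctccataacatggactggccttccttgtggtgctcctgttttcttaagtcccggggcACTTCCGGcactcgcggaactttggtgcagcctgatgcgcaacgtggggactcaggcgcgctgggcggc
U2AF2 (chr19:55654785-55655034, plus strand): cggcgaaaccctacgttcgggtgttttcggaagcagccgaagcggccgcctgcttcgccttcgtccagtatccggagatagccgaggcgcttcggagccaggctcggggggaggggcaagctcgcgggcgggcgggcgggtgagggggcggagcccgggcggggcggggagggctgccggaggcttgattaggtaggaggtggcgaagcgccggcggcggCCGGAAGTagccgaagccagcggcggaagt
The motif ends 61 bases before the start in SF3A3, where it lies on the opposite strand, and 22 bases before it in U2AF2. A match to these letters is a description of the sequence and not a binding site.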

How the data were processed

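RNA from MUTZ-1 and SKM-1 cells had been extracted with TRIzol and made into stranded, poly(A)-selected libraries, per the labels' protocols. The authors' whole-number counts per gene were deposited for 17518 genes, with 0 columns left unused, with fastp, HISAT2, HTSeq and build GRCh38 listed in the submitters' processing notes, without versions. Not given in the sources used here are the gene annotation, the use of strand in counting and what was done with reads that match several genes. FPKM values, deposited by the authors for the same libraries, served for levels per length and for 2 alternatives.

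The members and lists were chosen with earlier results of these data known. filterByExpr of edgeR 4.0.16 (R 4.3.3, minimum count 10) on the 4 groups kept 13625 genes. Counts were scaled by trimmed means of M values (factors 0.959 to 1.06) and fitted with a mean per group over all 12 libraries, 8 residual degrees of freedom, and edgeR's robust quasi-likelihood test, with Benjamini-Hochberg adjustment over all 13625 genes. The biological coefficient of variation was 2.44%. SE is the log2 fold change over the square root of F. Alternatives used library totals, relative log expression, no filter, a replicate block, only the groups compared, limma 3.58.1 on log2(FPKM + 1) and log2(FPKM + 0.1) of the deposited FPKM, chromosome medians subtracted, DESeq2 1.42.0, and each library left out. Named were SF3B1, SRSF2, U2AF1, ZRSR2, LUC7L2, DDX41 and PRPF8, and, per comparison, up to 5 members per direction with the largest called change at 5 CPM or more and no overlap; up to 5 with the largest difference of effects; up to 5 changed alike in both lines; and up to 3 genes per list. Other members are named as counts. Replicates differed beyond sampling noise (chi-square per degree of freedom 1.66 to 2.26).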

Additional observations from a re-analysis of the deposited data

Results flagged for a closer look

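The effect of the knockdown differed between the lines, by the test of the difference itself in edgeR's quasi-likelihood fit, for 21 of the 24 named members. These members were chosen in part for this difference, so the count follows from the choice, and over all genes the difference was called above 0 for 36.4% and below 0 for 35.6%. The difference is MUTZ-1 minus SKM-1 on the log2 scale. It was most negative for SF3A3 at -1.50 and HNRNPF at -1.45. SRSF6 had -1.27, HNRNPR -1.22 and HNRNPM -1.21. SRSF2 had -1.07 and HNRNPAB -1.02. SRSF8 had -0.96, LUC7L2 -0.89, PRPF8 -0.75 and HNRNPDL -0.74. DDX41 had -0.73, SRSF10 -0.55 and SF3B4 -0.45, and SF3B1 had -0.10. The sign was the other way for HNRNPA1L2 at 1.03, HNRNPLL at 0.38, HNRNPA1 at 0.37, SRSF5 at 0.15, HNRNPA0 at 0.088 and SRSF11 at 0.073. HNRNPA1 and SRSF5 fell in both lines and less in MUTZ-1. HNRNPLL, HNRNPA0 and SRSF11 had adjusted p-values of 0.044, 0.0263 and 0.0447 in that fit, and each lost its call without MUTZ-1 shNUDT21 replicate 3. HNRNPA0 also lost it without SKM-1 control replicate 1, SRSF11 without SKM-1 control replicate 3 or SKM-1 shNUDT21 replicate 1 or 3, and HNRNPLL without MUTZ-1 control replicate 3, MUTZ-1 shNUDT21 replicate 1 or SKM-1 control replicate 2 or 3. SF3B1 lost it without MUTZ-1 control or shNUDT21 replicates 1 or 2 or SKM-1 shNUDT21 replicate 2. Other settings ended calls too: library totals and both FPKM settings for SF3B1, no filter on low counts for HNRNPLL and SRSF11, and log2(FPKM + 1) for HNRNPLL. With chromosome medians subtracted, HNRNPLL and HNRNPA1L2 lost the call and that of SRSF5 turned. The difference was not called for HNRNPUL2, ZRSR2 and U2AF1 (adjusted p = 0.356, 0.124 and 1).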

How the results depend on the processing

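Counts of members called moved by over 1.5 times in few cases. Members higher in MUTZ-1, 2 as reported, numbered 6 with library totals, 4 with relative log expression and 4 with each pseudocount on FPKM. They ran between 2 and 5 with 1 library left out, with 4 without MUTZ-1 control replicate 1 and 5 without SKM-1 shNUDT21 replicate 2. Members lower in SKM-1, 4 as reported, numbered 7 with library totals and 7 with chromosome medians subtracted. Members with a difference of the effects above 0, 6 as reported, ran between 3 and 6 with 1 library left out, with 3 without MUTZ-1 shNUDT21 replicate 3. Members higher in both lines, 1 as reported, numbered 3 with library totals, 3 with relative log expression and 2 with each pseudocount on FPKM. They ran between 0 and 3 with 1 library left out, with 0 without MUTZ-1 control replicate 2 or SKM-1 control replicate 1, 2 without MUTZ-1 control replicate 1 and 3 without SKM-1 shNUDT21 replicate 2. Members lower in both, 2 as reported, numbered 4 with only the groups compared and 4 with chromosome medians subtracted. Members higher in MUTZ-1 and lower in SKM-1, 0 as reported, numbered 1 with library totals and 1 with chromosome medians subtracted. The other counts of members called in 1 comparison, and the 27 lower in MUTZ-1 and higher in SKM-1, stayed within 1.5 times under the alternatives run.

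With library totals, log2(FPKM + 1) and log2(FPKM + 0.1), SF3B1 in SKM-1 was -0.0284, -0.0276 and -0.0281 and its difference of effects 0.0256, 0.0248 and 0.0252. The difference for HNRNPUL2 was then 0.0957, 0.0932 and 0.095. SRSF11 in SKM-1 was -0.0521 with library totals. With chromosome medians subtracted, SRSF11 in SKM-1 was -0.1276 and SF3B4 -0.0642. The difference of effects was then -0.0524 for HNRNPA1L2, -0.1195 for SRSF5, 0.1763 for HNRNPUL2 and -0.2706 for CPSF6. MUTZ-1 over SKM-1 in controls was 0.0249 for HNRNPA1L2 and 0.0053 for NUDT21. In shNUDT21 libraries it was 0.1758 for SRSF2, 0.4388 for ZRSR2, 0.0563 for HNRNPM and -0.0275 for HNRNPA1L2. The cause was not tested. Among named genes, 92 further values lost their call under an alternative and 32 gained one.

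Library totals moved the median of all genes by 0.13 for the difference of effects and by -0.14 for the control lines; relative to it the members' medians were -0.54 and 0.78, beside -0.54 and 0.78 as reported. Replicate numbers did not pair the samples: deviations of same-numbered libraries correlated between -0.07 and 0.02, and not every library correlated best with its own number. With the replicate block, 31 members were lower in MUTZ-1 and 35 higher in SKM-1, as without it. DESeq2 gave no adjusted p for 1 member, U2AF1. Low counts limit HNRNPLL in MUTZ-1 and leave HNRNPCL1, HNRNPH2 and SRSF12 untested.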

Other observations

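The partners of NUDT21 in cleavage factor Im did not move alike. CPSF6, its larger partner, had 416, 424 and 409 CPM in MUTZ-1 shNUDT21 libraries, against 309, 299.5 and 315 CPM in MUTZ-1 controls. In SKM-1 it had 292, 284 and 279 CPM in shNUDT21 libraries, against 217, 223 and 208 CPM in controls. CPSF6 thus rose in both lines, by 0.44 and 0.40 on the log2 scale. CPSF7, the alternative partner, had 234, 241 and 242 CPM in MUTZ-1 shNUDT21 libraries, against 267, 266 and 281 CPM in MUTZ-1 controls. In SKM-1 it had 196, 201 and 194 CPM in shNUDT21 libraries, against 117, 112 and 114 CPM in controls. CPSF7 fell by 0.18 in MUTZ-1 and rose by 0.79 in SKM-1, the pattern of the 27 splicing factor genes.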
